A study of Mus musculus with 37 samples.

Results

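The 10 genes described here encode the small GTPase Ran and proteins that turn its cycle or carry cargo through the nuclear pore. They are Ran (ENSMUSG00000029430), Rcc1, Ranbp1, Rangap1, Xpo1, Kpna2, Kpnb1, Cse1l, Ipo5 and Tnpo1, chosen by symbol. All 10 were found among the 51123 gene IDs of a table of TPM values, which give each gene's share of the transcripts in a library. All 10 also reached 1 TPM in 3 or more libraries of each set, the level below which genes were not tested. RNA-seq had been performed on cultured mouse bone marrow (BM) and osteosarcoma (OS) cells, in 37 libraries. Set 1 held control BM (n = 4), DKO yBM (n = 6), DKO BMT (n = 3) and DKO tumor (n = 3), and set 2 held control BM beside the yBM, BMT and tumor cells of both SKO and DKO mice, each with n = 3. In SKO mice Osx1-Cre deletes Trp53, the gene of p53, and in DKO mice it deletes Trp53 together with Wwox, a tumor suppressor gene, and both genotypes carry a Cre-dependent tdTomato reporter at Rosa26. Osx1-Cre acts in mesenchymal progenitors committed to bone, and osterix has also been described in blood-forming cells. Young BM (yBM) came from mice without a tumor, aged 1.5 months (3 libraries) and 4 months (3 libraries) in set 1, while BMT is marrow taken when a tumor was detected. No age is given for any other library in the sources used here. The study reports that DKO mice developed OS earlier than SKO mice, so age may differ between groups. Control mice are described as WT in the methods, as lacking Cre in the series description and as Cre-positive WT in a legend. For the first experiment the methods describe cultures made from separate mice, while a legend calls its tumor and BMT cells paired. The labels tie no library of either set to a mouse, so the p-values cover only library-to-library spread, part of which may be technical.

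Ran switches between a GTP-bound and a GDP-bound form. The exchange factor encoded by Rcc1 sits on chromatin and loads Ran with GTP, while the GTPase-activating protein encoded by Rangap1, helped by Ranbp1, triggers hydrolysis on the cytoplasmic side of the pore. The resulting gradient tells a transport receptor on which side of the envelope it is, since RanGTP makes importins release cargo in the nucleus and makes exportins take it up. In dividing cells, RanGTP around the chromosomes also frees spindle assembly factors from importins. Every nucleated cell uses this machinery, and its genes are known to be expressed more strongly in growing and dividing cells. Several of them, Ran among them, are known as Myc targets, and the study asked whether Myc and its targets were raised in marrow of DKO mice before tumors appeared. It picked Ran and Rcc1 from these same libraries as upregulated genes, so their direction here is not independent evidence.

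Promoters were read because the study's question concerned Myc, which with Max binds the E-box CACGTG. RefSeq promoter windows (build GRCm38.p6, 250 bases before to 50 after an annotated start) were matched for 9 of the 10 members. A search of both strands found CACGTG in the window of 1 member, Ran, beginning at base −118 from the RefSeq start. Of all 32851 windows of this length, 7.15% held this E-box. The other motifs searched were the CCAAT box (CCAAT, in 37.4% of all windows), the cell cycle CHR element (TTTGAA, in 17.9%) and an E2F-type site (TTCCCGCC, in 2.19%). The windows of Xpo1, Kpnb1, Kpna2, Tnpo1, Ipo5 and Ranbp1 held CCAAT, that of Kpnb1 3 times, and those of Rcc1, Kpna2, Rangap1 and Ranbp1 held the CHR element. For Rcc1 and Rangap1 the GENCODE annotation begins 7855 and 15611 bases upstream of the RefSeq start, so their windows may lie inside the gene. The match of Rangap1 began at base 16, after the RefSeq start. Ranbp1 was the member with E2F-type sites, 1 on each strand. Stretches of 3 members are shown to set the E-box of Ran against the CCAAT boxes of Kpnb1 and the mixed motifs of Ranbp1. Each ends before the annotated start that lies farther upstream, which leaves out 1 of the E2F-type sites of Ranbp1, and capitals mark any of the 4 motifs on either strand:
Ran promoter, chr5:129019906-129020068, plus strand: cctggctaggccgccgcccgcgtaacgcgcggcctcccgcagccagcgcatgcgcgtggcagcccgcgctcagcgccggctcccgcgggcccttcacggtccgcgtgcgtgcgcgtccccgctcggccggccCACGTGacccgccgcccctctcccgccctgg
Ranbp1 promoter, chr16:18248733-18248944, minus strand: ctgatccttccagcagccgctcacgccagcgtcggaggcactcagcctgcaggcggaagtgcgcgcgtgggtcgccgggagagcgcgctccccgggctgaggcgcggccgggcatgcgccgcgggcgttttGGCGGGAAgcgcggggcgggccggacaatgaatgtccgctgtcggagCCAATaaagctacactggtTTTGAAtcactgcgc
Kpnb1 promoter, chr11:97187893-97188142, minus strand: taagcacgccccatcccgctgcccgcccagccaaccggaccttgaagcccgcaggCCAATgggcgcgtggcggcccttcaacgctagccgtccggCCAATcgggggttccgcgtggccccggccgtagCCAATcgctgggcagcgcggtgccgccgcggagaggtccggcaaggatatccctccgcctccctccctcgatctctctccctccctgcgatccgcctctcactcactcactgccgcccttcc
These letter matches are a description, not a sign of binding, and the build differs from the mm39 named for the deposited values.

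Some facts about the libraries touch every result. Wwox was above 50% of the control BM mean of its set in the libraries labelled set 1 DKO yBM 2 to 6, DKO BMT 1 and DKO tumor 1, and in all 3 labelled set 2 DKO tumor. The libraries labelled set 2 SKO BMT 2 and 3 held Wwox at 2.84% and 2.39% of control BM, and those labelled set 1 DKO BMT 2 and 3 held Trp53 at 63.3% and 72.1%. A score of 22 leukocyte markers, mostly of macrophages (mean log2(TPM + 1)), was 5.99 to 8.13 in set 1 control BM, 4.03 to 7.82 in DKO yBM and 6.80 to 7.43 in DKO BMT. It was 5.96, 0.425 and 0.633 in DKO tumor 1 to 3. In set 2 it was 8.42 to 8.69 in control BM and 0.241 to 0.789 in the knockout libraries, apart from SKO BMT 2 at 5.21 and DKO BMT 2 at 4.36. Control BM and knockout groups of set 2 thus differed in their content of blood cells, with 21 of the 22 markers called lower in SKO BMT and 22 in the other 5 groups. Mesenchymal and osteoblast markers were present throughout, at 4.57 to 8.13 on the same scale. In set 1 DKO tumor, 14 of the 22 leukocyte markers were called lower than in control BM, as were 318 of all 14404 genes tested. In bulk samples fewer cells of a type and less RNA per cell cannot be told apart. The part of these leukocyte differences in the results of either set was not tested.

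In control BM these genes differed widely in abundance on the TPM scale, which corrects for transcript length. Kpnb1 averaged 177 ± 62.1 TPM (SD, n = 4), Ranbp1 164 ± 52.7 TPM and Ran 111 ± 27.7 TPM in set 1, Ran lying above 91.9% of the genes tested. Rcc1 was the lowest at 8.97 ± 3.11 TPM, above 42.6% of the genes tested. In set 2, Ranbp1 averaged 149 ± 27.9 TPM, Ran 118 ± 48.2 TPM, Kpnb1 108 ± 21.3 TPM and Rcc1 10.9 ± 2.13 TPM (SD, n = 3). The other 6 members had control means of 19.2 to 58.1 TPM. In set 1 control BM 1 all 10 were above the group mean, and in control BM 4 none was.

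Ran itself was higher in every knockout group than in the control BM of its set, and no knockout library overlapped a control library. In set 1, control BM 1 to 4 held 143, 121, 102 and 77.6 TPM. DKO yBM 1 to 6 held 233, 195, 245, 202, 206 and 189.6 TPM, DKO BMT 1 to 3 288, 213 and 204 TPM, and DKO tumor 1 to 3 222, 179.7 and 304 TPM. DKO tumor 2, the lowest of the 12 knockout libraries, was thus above control BM 1, the highest control. Tested with limma on log2(TPM + 1), Ran rose by 0.95 ± 0.20 (log2 fold change ± SE) in DKO yBM (adjusted p = 0.0186), by 1.09 ± 0.23 in DKO BMT (adjusted p = 0.0332) and by 1.08 ± 0.23 in DKO tumor (adjusted p = 0.0339). The leukocyte score of all 3 DKO BMT libraries and of 4 of the 6 DKO yBM libraries lay within the range of control BM. DKO tumor 1 to 3 lay below this range, at 5.96, 0.425 and 0.633. The part of the score in these values was not tested. With the compared pair of groups fitted alone, Ran passed in DKO yBM (adjusted p = 0.0121 from limma). It did not pass in DKO BMT and DKO tumor (adjusted p = 0.145 and 0.203 from limma). The calls of set 1 rested on few libraries. Without control BM 4 all 3 ended (adjusted p = 0.0599 from limma in DKO yBM, adjusted p = 0.0792 from limma in DKO BMT, adjusted p = 0.109 from limma in DKO tumor). The BMT call also ended without any 1 of the 3 BMT libraries (adjusted p = 0.0906, 0.0546 and 0.0691 from limma) and the tumor call without DKO tumor 3 or control BM 3 (adjusted p = 0.163 and 0.0783 from limma). When libraries with Wwox against their label were left out, 1 DKO yBM, 2 DKO BMT and 2 DKO tumor libraries remained, with log2 fold changes of 1.10, 0.94 and 1.10 that did not pass (adjusted p = 0.455, 0.243 and 0.138 from limma). Without the DKO BMT libraries with Trp53 against their label, 1 was left, at 1.40 (adjusted p = 0.0599 from limma).

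**Figure D1:**
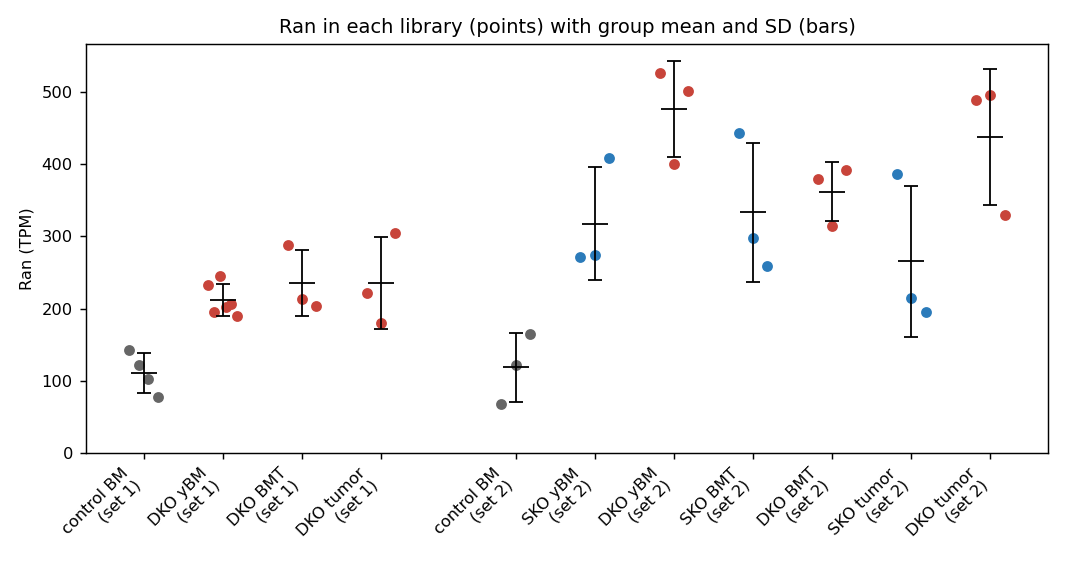
Ran level (TPM, y axis from 0) in each of the 37 libraries by group (x axis), with points for libraries, grey for control BM, blue for SKO and red for DKO, and black marks for the group mean and SD. In each set all knockout libraries lie above all control libraries, the lowest being DKO tumor 2 of set 1 at 179.7 TPM and SKO tumor 3 of set 2 at 195 TPM.

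In set 2 the fold changes of Ran were larger. Control BM held 68.4, 122 and 165 TPM in its 3 libraries, which carry no replicate number here and are called a, b and c. SKO yBM 1 to 3 held 271, 274 and 408 TPM and DKO yBM 1 to 3 527, 401 and 501 TPM. The lowest of these 6 was thus above the highest control. SKO BMT 1 to 3 held 443, 297 and 259 TPM and DKO BMT 1 to 3 379, 315 and 392 TPM. SKO tumor 1 to 3 held 386, 215 and 195 TPM and DKO tumor 1 to 3 489, 496 and 329 TPM. SKO tumor 3, the lowest knockout library, still lay above control BM c. Ran rose by 1.48 ± 0.34 in SKO yBM (adjusted p = 0.00644 from limma) and by 2.08 ± 0.34 in DKO yBM (adjusted p = 0.00024 from limma). It rose by 1.53 ± 0.34 in SKO BMT (adjusted p = 0.00518 from limma) and by 1.69 ± 0.34 in DKO BMT (adjusted p = 0.00229 from limma). In tumor cells it rose by 1.18 ± 0.34 for SKO (adjusted p = 0.0288 from limma) and by 1.94 ± 0.34 for DKO (adjusted p = 0.000461 from limma). With any single library left out, 5 of these 6 calls held, and the SKO tumor call ended without control BM a, control BM b or SKO tumor 1 (adjusted p = 0.135, 0.0608 and 0.13 from limma). With the compared pair of groups fitted alone, Ran did not pass in SKO BMT, DKO BMT and SKO tumor (adjusted p = 0.0792, 0.0577 and 0.28 from limma).

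Ordered by group mean, Ran in set 2 went from 118 ± 48.2 TPM in control BM (SD, n = 3) over 265 ± 105 in SKO tumor, 318 ± 78.3 in SKO yBM, 333 ± 96.7 in SKO BMT, 362 ± 41.2 in DKO BMT and 438 ± 94.2 in DKO tumor to 476 ± 66.6 in DKO yBM. Neighbours in this order above control BM differed by less than the larger of their SDs. In set 1 the DKO groups averaged 212 ± 22.2 TPM (yBM, n = 6), 235 ± 45.7 TPM (BMT, n = 3) and 235 ± 63.3 TPM (tumor, n = 3). Among 13585 genes tested in both sets, 9 (0.0662%) were called higher in all 9 comparisons with control BM, namely Eef1d, Mrto4, Nop56, Nup43, Psat1, Ran, Rfc4, Rpsa and Timm8a1. Within a set these comparisons share their control libraries, so they are not independent. As given above, Ran kept only part of its 9 calls with single libraries left out or with pairs of groups fitted alone. The other members were called in 0 to 3 of the 9.

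The partners that turn the Ran cycle followed less uniformly. Rcc1, which charges Ran with GTP, was at 12.6, 10.3, 7.26 and 5.68 TPM in set 1 control BM 1 to 4 and at 12.5, 16.8, 25.5, 19.0, 9.22 and 10.4 TPM in DKO yBM 1 to 6. These groups overlapped, and the log2 fold change of 0.71 ± 0.35 did not pass (adjusted p = 0.203 from limma). DKO BMT 1 to 3 held 36.3, 19.9 and 17.1 TPM, all above control BM, with a log2 fold change of 1.33 ± 0.41 that missed the threshold (adjusted p = 0.0902 from limma). In set 2, control BM a, b and c held 8.53, 11.8 and 12.6 TPM, and 17 of the 18 knockout libraries were above all of them, the library labelled SKO tumor 2 being the exception at 3.04 TPM. SKO BMT 1 to 3 held 55.2, 46.1 and 28.3 TPM and DKO tumor 1 to 3 63.1, 70.7 and 24.1 TPM. Rcc1 rose in both groups, by 1.85 ± 0.60 (adjusted p = 0.0499 from limma) and 2.04 ± 0.60 (adjusted p = 0.0265 from limma). The SKO BMT call ended without any of its 6 libraries in turn (adjusted p of 0.0559 to 0.151 from limma). The DKO tumor call ended without control BM a, control BM b, DKO tumor 1 or DKO tumor 2 (adjusted p = 0.0866, 0.0602, 0.0913 and 0.122 from limma).

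Ranbp1, which helps to dissociate RanGTP from transport receptors, was at 237, 159, 148 and 112 TPM in set 1 control BM 1 to 4 and at 354, 229, 391, 319, 394 and 339 TPM in DKO yBM 1 to 6. Of these 6, 5 exceeded the highest control, and Ranbp1 rose by 1.07 ± 0.27 (adjusted p = 0.0301 from limma). The call held without DKO yBM 2, DKO yBM 4 or control BM 1 and ended without any of the other 7 libraries (adjusted p of 0.0566 to 0.0951 from limma). In set 2, control BM a, b and c held 181, 136 and 130.2 TPM, DKO yBM 1 to 3 398, 265 and 349 TPM and DKO tumor 1 to 3 414, 501 and 357 TPM. Both knockout groups lay above control BM, with log2 fold changes of 1.17 ± 0.32 (adjusted p = 0.0171 from limma) and 1.50 ± 0.32 (adjusted p = 0.00316 from limma). The DKO tumor call held with any single library left out. The DKO yBM call ended without control BM b, control BM c, DKO yBM 1 or DKO yBM 3 (adjusted p of 0.0535 to 0.0799 from limma) and with median-ratio scaling (adjusted p = 0.065 from limma).

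Rangap1, the activator of Ran's GTPase, was called in none of the 9 comparisons, with log2 fold changes of −0.02 to 1.58. Set 1 control BM 1 to 4 held 40.8, 32.7, 22.5 and 15.4 TPM and DKO BMT 1 to 3 72.9, 55.8 and 46.5 TPM, without overlap. In set 2, control BM a, b and c held 16.0, 33.1 and 34.7 TPM and DKO yBM 1 to 3 75.2, 77.8 and 88.3 TPM. These groups did not overlap either, yet the log2 fold change of 1.57 ± 0.62 missed the threshold (adjusted p = 0.0876 from limma). It passed there with median-ratio scaling, with quantile normalization and with the pair of groups fitted alone (adjusted p = 0.0171, 0.0153 and 0.02 from limma).

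**Figure D2:**
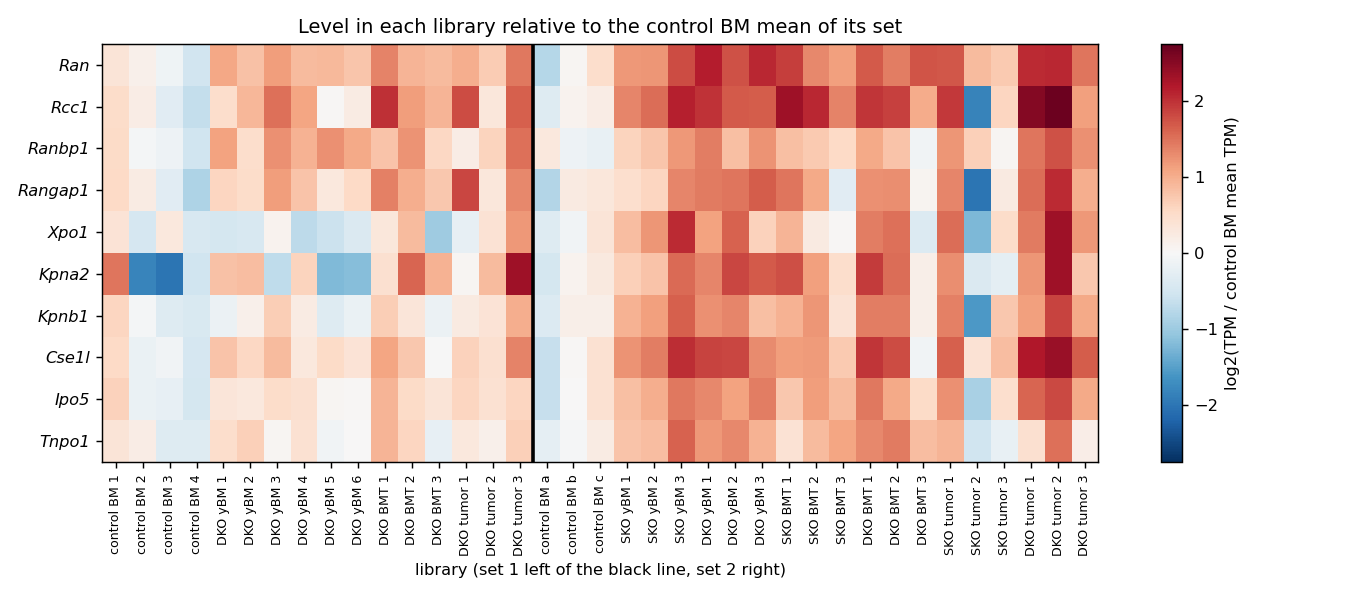
Each of the 10 genes (rows) in each of the 37 libraries (columns, set 1 left of the black line and set 2 right), as log2 of the TPM value over the control BM mean of its set, red for higher and blue for lower. Ran is red in all knockout libraries, while Xpo1 and Kpna2 are blue in part of set 1 and 7 of the 10 genes are blue in SKO tumor 2 of set 2.

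Among the import receptors, Kpna2, Ipo5 and Tnpo1 were called in set 2 and Kpnb1 was not, and none was called in set 1. Kpnb1, importin beta, which docks import complexes at the pore and is released from them by RanGTP, was at 267, 171, 139 and 132 TPM in set 1 control BM 1 to 4 and at 158, 195, 283, 208, 138 and 157 TPM in DKO yBM 1 to 6. The groups overlapped, with a log2 fold change of 0.12 ± 0.26 (adjusted p = 0.81 from limma). In set 2, control BM a, b and c held 83.3, 119.9 and 121 TPM, and 17 of the 18 knockout libraries were higher, SKO tumor 2 being the exception at 36.1 TPM. Its log2 fold changes in set 2 were 0.21 to 1.36, and none passed (adjusted p of 0.0953 to 0.871 from limma).

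Kpna2, the adaptor that links cargo with a classical nuclear localization signal to Kpnb1, varied most among control libraries, at 108, 11.1, 9.59 and 26.7 TPM in set 1 control BM 1 to 4. DKO yBM 1 to 6 held 67.9, 69.6, 23.8, 59.2, 16.7 and 17.3 TPM, all below control BM 1. In set 2, control BM a, b and c held 41.8, 62.5 and 70.1 TPM and DKO yBM 1 to 3 148, 208 and 187 TPM. These did not overlap, and Kpna2 rose by 1.64 ± 0.52 (adjusted p = 0.0341 from limma). The call held without control BM c and ended without any of the other 5 libraries (adjusted p of 0.0633 to 0.125 from limma). Its pseudogene Kpna2-ps was at most at 0.430 TPM in any library, and Rasl2-9, a near copy of Ran, at 0.619 TPM, and reads shared with such copies may have been split between them.

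Ipo5 imports ribosomal proteins and histones, and Tnpo1 imports RNA-binding proteins with a PY-type signal. Ipo5 was at 31.0, 48.1 and 64.3 TPM in set 2 control BM a, b and c, at 119.7, 103 and 127 TPM in DKO yBM 1 to 3 and at 146, 169 and 98.2 TPM in DKO tumor 1 to 3. It rose by 1.32 ± 0.42 in DKO yBM (adjusted p = 0.0344 from limma) and by 1.53 ± 0.42 in DKO tumor (adjusted p = 0.0169 from limma). The DKO yBM call held without control BM c and ended without any of the other 5 libraries (adjusted p of 0.0584 to 0.146 from limma), and the DKO tumor call ended without control BM a, DKO tumor 1 or DKO tumor 2 (adjusted p = 0.0805, 0.0543 and 0.0824 from limma). Tnpo1 was at 16.2, 18.9 and 22.5 TPM in control BM a, b and c and at 44.2, 48.1 and 37.3 TPM in DKO yBM 1 to 3. It rose there by 1.13 ± 0.39 (adjusted p = 0.0478 from limma), a call that ended without any of the 6 libraries in turn (adjusted p of 0.062 to 0.139 from limma). In set 1 neither passed, with log2 fold changes of 0.34 to 0.66 for Ipo5 and 0.27 to 0.45 for Tnpo1 (adjusted p of 0.147 to 0.495 from limma).

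The exporters differed from each other. Cse1l returns Kpna2 and its relatives to the cytoplasm once their cargo is delivered. It was at 14.4, 22.6 and 29.7 TPM in set 2 control BM a, b and c, at 52.0, 58.6 and 91.0 TPM in SKO yBM 1 to 3, at 80.4, 79.6 and 55.1 TPM in DKO yBM 1 to 3 and at 102, 114 and 70.3 TPM in DKO tumor 1 to 3. No library of these knockout groups overlapped control BM, and Cse1l rose by 1.57 ± 0.45 (adjusted p = 0.0281 from limma), 1.68 ± 0.45 (adjusted p = 0.0147 from limma) and 2.08 ± 0.45 (adjusted p = 0.00352 from limma). The DKO tumor call held with any single library left out. The DKO yBM call ended without control BM a or DKO yBM 1 (adjusted p = 0.072 and 0.0587 from limma), and the SKO yBM call without control BM a, control BM b, SKO yBM 2 or SKO yBM 3 (adjusted p = 0.128, 0.0626, 0.0606 and 0.141 from limma). In set 1 its log2 fold changes of 0.60 to 0.84 did not pass (adjusted p of 0.115 to 0.25 from limma).

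Xpo1, the exporter of proteins with a leucine-rich export signal, had the lowest median change of the members, 0.50 over the 9 comparisons. It was at 37.8, 21.2, 35.7 and 21.3 TPM in set 1 control BM 1 to 4. DKO yBM 1 to 6 held 20.7, 21.5, 31.1, 17.6, 19.4 and 21.97 TPM, none above the highest control, and the log2 fold change of −0.35 ± 0.34 did not pass (adjusted p = 0.527 from limma). In set 2, control BM a, b and c held 15.8, 18.7 and 25.6 TPM and DKO tumor 1 to 3 53.7, 100.4 and 45.7 TPM. These did not overlap, and the log2 fold change of 1.63 ± 0.58 missed the threshold (adjusted p = 0.0624 from limma), while it passed with median-ratio scaling, with quantile normalization and with the pair of groups fitted alone (adjusted p = 0.012, 0.00948 and 0.0288 from limma).

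**Figure D3:**
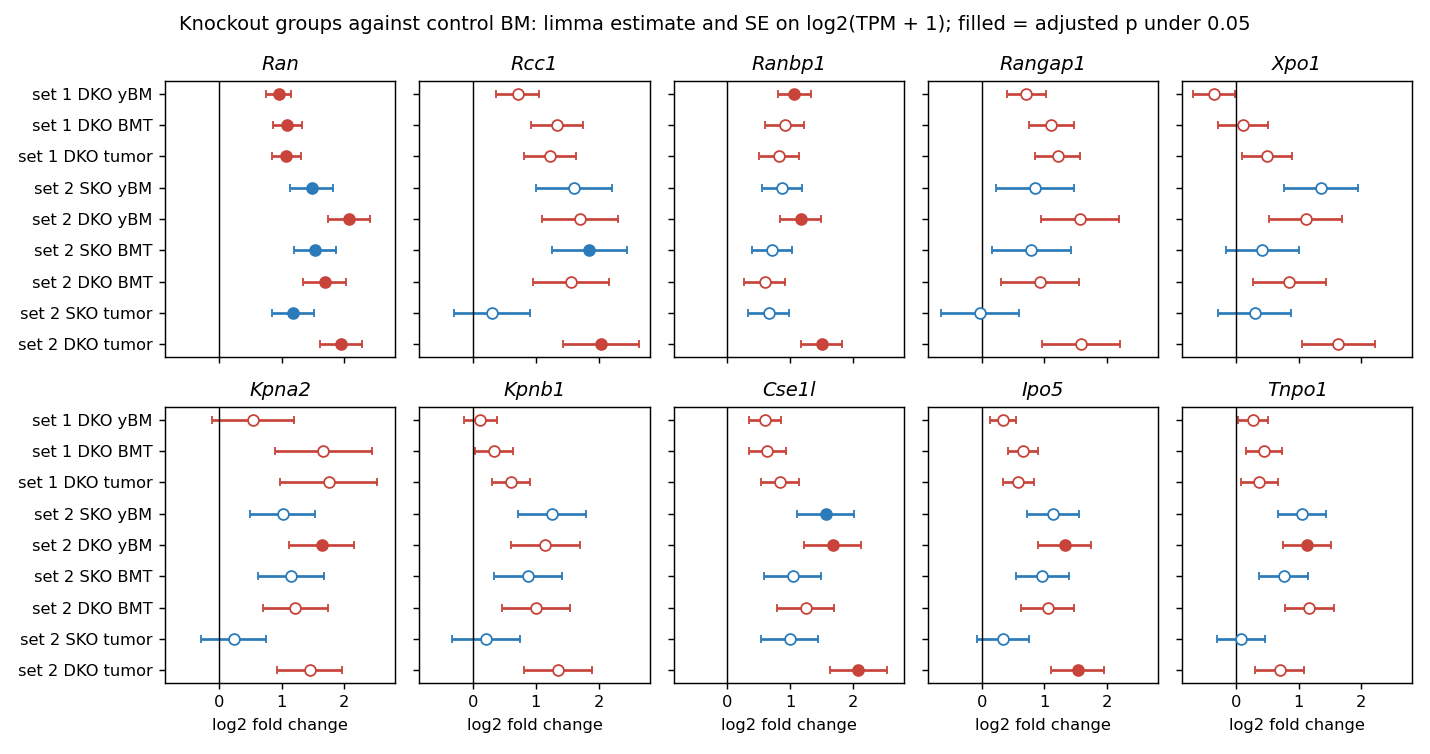
Log2 fold change against control BM (x axis, limma estimate on log2(TPM + 1), bars of 1 SE) of each of the 10 genes in the 9 knockout groups (y axis), blue for SKO and red for DKO, with filled circles where the adjusted p was under 0.05. Ran is filled in all 9 groups, and Rangap1, Xpo1 and Kpnb1 in none.

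Counted over the members, 2 of 10 were called higher in set 1 DKO yBM, where 1.67% of all genes were, and Ran was the 1 member called in DKO BMT (0.958% of all genes) and DKO tumor (1.19%). In set 2 the counts were 2 in SKO yBM (5.78% of all genes), 6 in DKO yBM (9.34%), 2 in SKO BMT (5%), 1 in DKO BMT (4.22%), 1 in SKO tumor (2.01%) and 5 in DKO tumor (7.71%). No member was called lower in any of the 9. These counts changed when single libraries were left out. In set 2 DKO yBM the count fell from 6 to between 1 and 4 whichever library was left out, and it was 3 without a filter on low values. It ran from 3 to 6 in DKO tumor, from 1 to 3 in DKO BMT, from 1 to 2 in SKO yBM and from 0 to 1 in SKO tumor, and was 1 throughout in SKO BMT. In set 1 it ran from 0 to 2 in DKO yBM, from 0 to 1 in DKO BMT and from 0 to 4 in DKO tumor. The members' median log2 fold change in set 1 was 0.58 in DKO yBM, 0.79 in DKO BMT and 0.83 in DKO tumor, beside −0.22, −0.06 and −0.09 for all genes tested. In set 2 it was 1.20 in SKO yBM and 1.44 in DKO yBM (all genes 0.24 and 0.07), 0.92 in SKO BMT and 1.11 in DKO BMT (all genes 0.07 and 0.09), and 0.30 in SKO tumor and 1.56 in DKO tumor (all genes −0.11 and 0.11). SKO tumor was 0.96 without the library labelled SKO tumor 2 (all genes 0.18).

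By separation of libraries, 1 member had all DKO yBM libraries of set 1 above all control libraries (3.19% of all genes), 4 members had this in DKO BMT (7.14%) and 1 in DKO tumor (4.97%). In set 2 it held for 10 members in SKO yBM (30.9% of all genes), 10 in DKO yBM (24.9%), 8 in SKO BMT (17.8%), 5 in DKO BMT (15.9%), 1 in SKO tumor (7.46%) and 9 in DKO tumor (21.8%). Such separation was thus common among all genes of set 2, apart from SKO tumor at 7.46%. The leukocyte score separated knockout from control libraries in every group of set 2, SKO tumor included, and its part was not tested. Of the 12 knockout libraries of set 1, all exceeded the highest control for Ran, 10 for Ranbp1, 9 for Rangap1, 8 for Rcc1, 7 for Cse1l, 6 for Tnpo1, 3 for Xpo1, 3 for Kpnb1, 2 for Kpna2 and 1 for Ipo5.

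The comparison of DKO with SKO asks what loss of Wwox adds to loss of Trp53. No member was called in either direction. In yBM, 0.0207% of all genes were called (3 genes), and Ran overlapped between the genotypes, with a log2 fold change of 0.60 ± 0.34 (adjusted p = 1 from limma). Rangap1 had the highest value there, 0.71 ± 0.62, and Xpo1 the lowest, −0.25 ± 0.58 (adjusted p = 1 for each from limma). In BMT, 0% of genes were called by limma (378 at an unadjusted p under 0.05), and the members ran from −0.29 for Rcc1 to 0.43 for Xpo1, with Ran at 0.15 ± 0.34. The labels of SKO BMT 2 and 3 go against their Wwox level, and without both Ran was at −0.30.

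In tumor cells all 10 members had positive values in DKO against SKO, from 0.62 ± 0.39 for Tnpo1 to 1.75 ± 0.60 for Rcc1, with a median of 1.17 beside 0.25 for all genes and with Ran at 0.77 ± 0.34. None passed (smallest adjusted p = 0.585 from limma), and 0% of all genes were called by limma (1213 at an unadjusted p under 0.05). In 2 members, Ranbp1 and Cse1l, all DKO tumor libraries lay above all SKO tumor libraries, as in 4.8% of all genes. Without SKO tumor 2 the members' median was 0.69 and that of all genes −0.03. In SKO tumor 2, mitochondrial transcripts made up 26.8% of TPM, 11001 genes reached 1 TPM, the fewest of any library, and the proliferation score (mean log2(TPM + 1) of 14 genes) was 3.89, the lowest of the SKO tumor libraries. Since Wwox was not depleted in the libraries labelled DKO tumor of set 2, this is a contrast of labels and not of Wwox levels.

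Within set 1, DKO tumor against DKO BMT gave calls for 0.257% of all genes (37) and for no member, the members' median being 0.04, from −0.11 for Rcc1 to 0.38 for Xpo1. Ran averaged 235 ± 63.3 TPM in DKO tumor and 235 ± 45.7 TPM in DKO BMT (SD, n = 3 each), a log2 fold change of −0.02 ± 0.25 (adjusted p = 0.994 from limma). The 22 leukocyte markers had a median of −4.83 in this comparison, with 1 called lower, and their part was not tested. A legend calls the BMT and tumor cells of the first experiment paired, without saying which library goes with which. With the replicate number as a block, limma called 0 genes (1505 at an unadjusted p under 0.05), and Ran was at −0.02 (adjusted p = 0.997 from limma). With the block in a fit of these 6 libraries alone, limma again called 0 genes (1377 at an unadjusted p under 0.05). In DKO yBM at 4 months against 1.5 months, 0.00694% of genes were called (1 gene, with 155 at an unadjusted p under 0.05), again no member. Here 9 of the 10 had negative values, with a median of −0.28 beside −0.11 for all genes. Ran averaged 199 ± 8.51 TPM at 4 months and 224 ± 26.2 TPM at 1.5 months (SD, n = 3 each), a log2 fold change of −0.16 ± 0.26 (adjusted p = 1 from limma). Kpna2 was lowest at −0.88, and Ranbp1 was the exception at 0.14.

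Myc, the transcription factor of the study's question, was not called in any of the 3 set 1 comparisons with control BM and was called in 2 of the 6 of set 2. It was at 36.3, 11.3, 37.7 and 16.6 TPM in control BM 1 to 4 and at 24.8, 34.6, 17.0, 14.4, 17.8 and 19.5 TPM in DKO yBM 1 to 6, with overlap and a log2 fold change of −0.14 ± 0.40 (adjusted p = 0.855 from limma). DKO BMT 1 to 3 held 59.0, 13.6 and 33.7 TPM, 1 of them above the highest control (0.40 ± 0.47, adjusted p = 0.677 from limma). DKO tumor 1 to 3 held 40.9, 43.3 and 55.8 TPM, all 3 above it (1.00 ± 0.47, adjusted p = 0.221 from limma). In set 2 Myc averaged 17.5 ± 4.67 TPM in control BM, 58.3 ± 7.82 in SKO yBM, 61.2 ± 8.51 in DKO yBM, 63.2 ± 24.0 in SKO BMT, 74.9 ± 20.5 in DKO BMT, 35.8 ± 29.9 in SKO tumor and 109 ± 61.2 in DKO tumor (SD, n = 3 each). All 3 libraries of each knockout group were above all control libraries, except in SKO tumor, where 2 of 3 were. It rose in DKO BMT, by 2.03 ± 0.62 (adjusted p = 0.0416 from limma), and in DKO tumor, by 2.42 ± 0.62 (adjusted p = 0.0122 from limma). In yBM the log2 fold changes of 1.77 ± 0.62 for DKO (adjusted p = 0.0544 from limma) and 1.70 ± 0.62 for SKO (adjusted p = 0.0794 from limma) missed the threshold, as did those of 1.75 ± 0.62 in SKO BMT (adjusted p = 0.0711 from limma) and 0.48 ± 0.62 in SKO tumor (adjusted p = 0.711 from limma). These tests compare RNA with control BM, and unlike those of the members they were not repeated with other settings or with libraries left out. The study compared DKO with SKO yBM and also used Myc protein blots, WWOX re-expression and Myc binding at promoters (ChIP-seq), which were not examined here.

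Other genes of nuclear transport were described by lists, whose calls were not repeated under other settings either. Their counts stand against the shares of all genes called higher, which were 1.67%, 0.958% and 1.19% in set 1 DKO yBM, DKO BMT and DKO tumor. In set 2 these shares were 5.78% for SKO and 9.34% for DKO in yBM, 5% and 4.22% in BMT, and 2.01% and 7.71% in tumor. Among 20 further karyopherins, the family of import and export receptors, none was called higher in set 1, 2 were in set 2 DKO yBM (9.34% of all genes) and 2 in DKO tumor (7.71%), near the share of all genes, and 0 in the other 4 groups of set 2. Xpo4, Xpot and Xpo5, exporters of which Xpot carries tRNA and Xpo5 microRNA precursors, had the smallest median p of the list and were called in 1, 0 and 1 of the 9 comparisons. Of 10 Ran-binding and accessory genes, 6 were called higher in set 2 DKO yBM (9.34% of all genes), 3 in DKO tumor (7.71%), 2 in SKO yBM, 2 in SKO BMT and 0 in DKO BMT and SKO tumor, against 0, 1 and 1 in set 1 DKO yBM, DKO BMT and DKO tumor. Rcc2, a relative of Rcc1 that works at centromeres, was called in 5 of 9 and averaged 36.8 ± 7.24 TPM in set 1 control BM and 115 ± 37.6 TPM in DKO BMT. Rangrf, which binds Ran, was called in 4 and Nup50, which helps to unload importins, in 1. Ranbp6 and Ranbp9 were called lower in set 1 DKO yBM, the lower calls of these lists.

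Nucleoporins, the building blocks of the pore, held 27 tested genes in set 1 and 26 in set 2. Of these, 9 were called higher in DKO yBM (9.34% of all genes) and 9 in DKO tumor of set 2 (7.71%), 6 in SKO yBM, 6 in SKO BMT, 3 in DKO BMT and 2 in SKO tumor, and 1, 1 and 2 in set 1 DKO yBM, DKO BMT and DKO tumor. Nup43, of the Y-shaped scaffold complex, passed in all 9. It averaged 5.63 ± 1.86 TPM in set 1 control BM and 12.4 ± 2.33 TPM in DKO yBM, and 6.98 ± 3.46 TPM in set 2 control BM and 36.9 ± 6.82 TPM in DKO tumor. Nup37 of the same complex passed in 6 and Nup205 of the inner ring in 3. Among 15 genes of mRNA export none was called in set 1 and 4 were in each of set 2 DKO yBM, SKO BMT and DKO tumor (9.34%, 5% and 7.71% of all genes), with 1 in each other group of set 2. Eny2 passed in 6 comparisons and Alyref and Nxt1 in 3 each.

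Of 9 spindle assembly genes linked to RanGTP, 6 were called higher in set 2 SKO yBM (5.78% of all genes). In set 2, 5 were in DKO yBM (9.34%), 6 in DKO tumor (7.71%), 3 in SKO tumor and 2 in each BMT group. In set 1 the counts were 1, 0 and 2 in DKO yBM, DKO BMT and DKO tumor. Aurka, the Aurora A kinase, passed in 7 of 9, with 5.46 ± 2.15 TPM in set 2 control BM and 60.9 ± 9.41 TPM in DKO yBM. Its activator Tpx2 passed in 6, with 8.54 ± 1.69 TPM and 52.6 ± 3.16 TPM in the same groups, and Tacc3 in 4. Kifc1, Ckap5 and Numa1 were called in none, Numa1 with log2 fold changes of −1.49 to 0.0069. Proliferation markers, taken as a list, moved with the same groups. Over 14 genes their median log2 fold change was 1.08, 1.37 and 1.58 in set 1 DKO yBM, DKO BMT and DKO tumor and 1.11 (SKO tumor) to 2.52 (DKO yBM) in set 2, with 2 to 10 of the 14 called higher over the 9 comparisons. Mcm7, a subunit of the replicative helicase, passed in 8 of 9, Tyms, which makes thymidylate, in 7 and Ccnb1, cyclin B1, in 6. Mcm2, Mki67, Pcna and Rrm2 of the same list were called in none. Their log2 fold changes ran from −0.12 to 2.38, −0.18 to 1.75, −0.21 to 0.78 and −0.52 to 1.38. The part of cell division in the levels of the Ran genes was not tested.

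**Figure D4:**
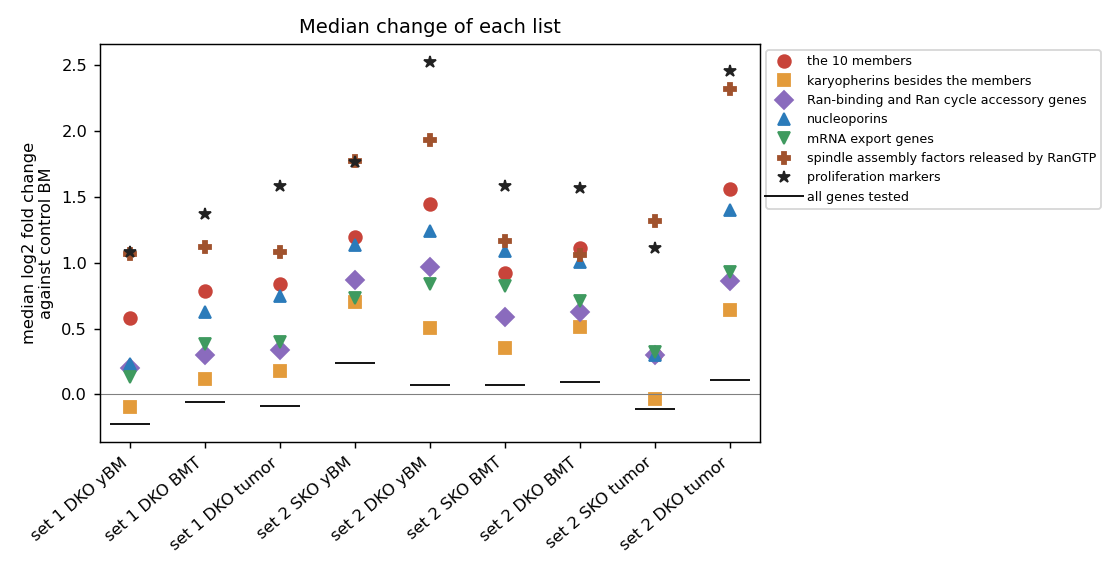
Median log2 fold change against control BM (y axis) of the 10 Ran cycle and transport genes and of 6 further lists (symbols) in each knockout group (x axis), with black dashes for all genes tested. In each group the 10 genes lie above the dash for all genes, and the proliferation markers lie above the 10 genes.

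Library by library, the proliferation score in set 1 was 3.66 to 5.44 in control BM, 5.37 to 5.92 in DKO yBM, 5.49 to 6.29 in DKO BMT and 5.24 to 6.44 in DKO tumor. In set 2 the score was 3.60 to 4.37 in control BM and 3.89 to 6.89 in the knockout libraries. Endothelial, erythroid and lymphocyte markers were at or under 1.68, 1.40 and 2.04 (mean log2(TPM + 1)) in every library.

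**Figure D5:**
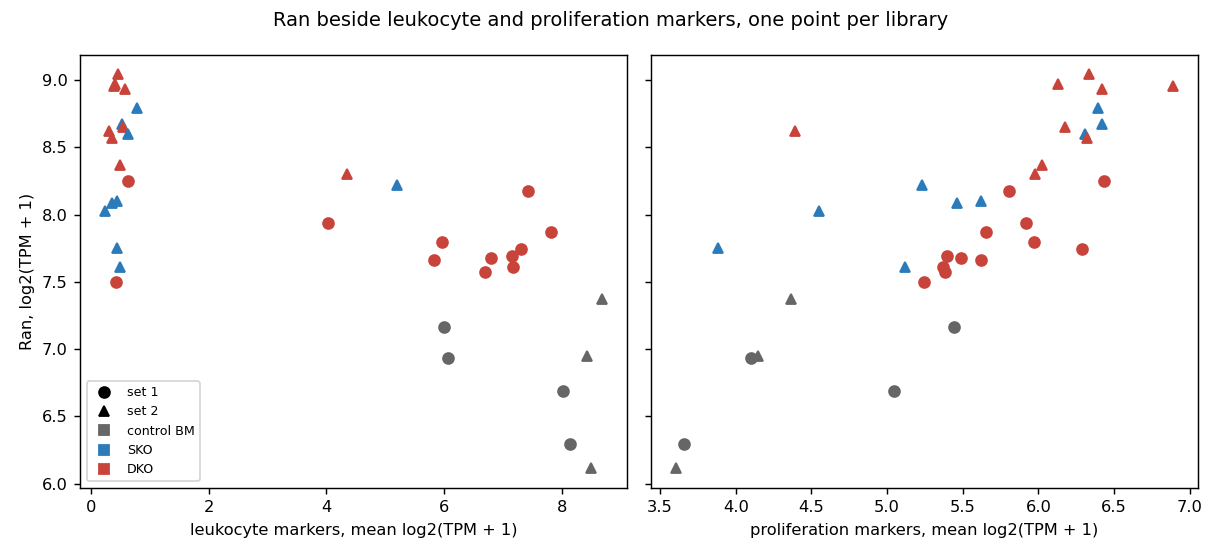
Ran (log2(TPM + 1), y axis) against the mean log2(TPM + 1) of leukocyte markers (left) and proliferation markers (right), 1 point per library, circles for set 1 and triangles for set 2, grey for control BM, blue for SKO and red for DKO. Control libraries lie below all knockout libraries of their set for Ran, and in both panels red circles of set 1 overlap the grey ones along the x axis.

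Over the 37 libraries, each centred on the control BM mean of its set, every member tracked the mean of the other 9, with Pearson correlations from 0.67 (Ranbp1) and 0.69 (Kpna2) to 0.94 (Ipo5). Among 13450 other named genes, the pattern most like the mean of the 10 was that of Ddx20, an RNA helicase of the SMN complex (r = 0.96). It was followed by Cdca2, Nup85, Nek2, Tfdp1, Rpa1, Tpx2 and Mcm4 (r = 0.95 to 0.94). These correlations are a description, since the libraries share their set, their group and their cell content.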

How the data were processed

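Cultured mouse BM and OS cells were profiled by stranded mRNA sequencing on a NextSeq 500. The authors trimmed the reads (Trim Galore, 0.6.1 in the submitters' processing notes, which also name mm39), ran salmon and deposited gene-level TPM (their comparisons were made with DESeq2). TPM keeps no depth, so the number of reads behind a value is unknown and neither intervals nor floors are given. Symbols were taken from GRCm38 tables (48246 of 51123 gene IDs). Libraries were grouped by their labels, and 3 columns (set 2 control BM) were matched to their group alone.

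In each set, genes at 1 TPM or more in 3 or more libraries (14404 in set 1, 14458 in set 2) were fitted with limma 3.58.1 (R 4.3.3) on log2(TPM + 1), with all groups of the set together, a trended prior and no covariate. A Benjamini-Hochberg adjusted p under 0.05 over all genes was a call, and fold changes on this scale understate those of low genes. The fit was tested on simulated data. Named are the 10 members, Trp53, Wwox, Myc, the 3 genes of smallest median p per list and the 8 genes most like the members' mean. Further genes named beside small counts, or as called in none, were added after their values were seen. Members and lists were chosen with earlier results of these data known. Deviations from the group means of libraries with the same number correlated at −0.279 to 0.285 in set 1 and −0.223 to 0.381 in set 2, so the numbers were not taken to pair libraries, although BMT and tumor cells of the first experiment are described as paired, for which blocked values are given. SKO BMT and DKO BMT of set 2 did track by number, at 0.293, 0.291 and 0.381, against −0.292 to −0.029 for different numbers. What this reflects was not tested. For the members, other scalings, pseudocounts, filters, fits and left-out libraries were tried. The exclusion of libraries against their labels and the block on BMT and tumor alone were tried after seeing the data.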

Additional observations from a re-analysis of the deposited data

Results flagged for a closer look

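In set 1 DKO yBM, Xpo1 was at 31.1 TPM in library 3, against 17.6 to 21.97 TPM in the other 5, a gap that was large for the group's range (Dixon's test at the 95% level). Among the 20 sets of values checked in this way (each of the 10 genes in set 1 control BM and in DKO yBM), 1 was picked out, and chance picks out about 1 in 20. In 180 checks, each of a member in a pair of knockout groups, no member had all libraries of one group above the control mean and all of the other below it.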

How the results depend on the processing

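TPM gives no depth, so no value here carries a counting error, and the small groups let single libraries decide many calls. The number of the 10 members called against control BM depended on the setting, and the cause was not tested. For the scalings, pseudocount, filter and pairs fitted alone, it is listed only where it changed by a large factor. For groups not listed under these settings it changed less or not at all. With median-ratio scaling it was 5, 3 and 3 in set 1 DKO yBM, DKO BMT and DKO tumor, and 5, 5, 2 and 9 in set 2 SKO yBM, DKO BMT, SKO tumor and DKO tumor. With quantile normalization it was 3 and 3 in set 1 DKO BMT and DKO tumor, and 7, 4, 6, 2 and 9 in set 2 SKO yBM, SKO BMT, DKO BMT, SKO tumor and DKO tumor. Without a filter on low values it was 1 in set 1 DKO yBM, 3 in set 2 DKO yBM and 1 in SKO BMT, where a pseudocount of 0.1 also gave 1. With the 2 compared groups fitted alone it was 0 in set 1 DKO BMT and DKO tumor, and 8, 1, 0, 0 and 8 in set 2 SKO yBM, SKO BMT, DKO BMT, SKO tumor and DKO tumor. Leaving out libraries with Wwox against their label gave 0 in each set 1 group and 1 in set 2 SKO BMT (no DKO tumor library of set 2 would be left), and leaving out those with Trp53 against it gave 0 in set 1 DKO BMT. With the replicate number as a block it was 0 in set 1 DKO yBM, DKO BMT and DKO tumor (Ran adjusted p = 0.118, 0.122 and 0.153 from limma), while no member was called with or without the block in the comparisons of DKO with SKO. With single libraries left out it was 0 to 2, 0 to 1 and 0 to 4 in set 1 DKO yBM, DKO BMT and DKO tumor, 1 to 2, 1 to 1 and 0 to 1 in the yBM, BMT and tumor groups of SKO in set 2, 1 to 4, 1 to 3 and 3 to 6 in those of DKO, and 0 to 0 in the 5 comparisons among knockout groups. No called value changed sign under any setting. In the 5 comparisons among knockout groups, signs were followed only for Ran and for the members of lowest and highest value. Values that were not called and did change sign were Kpnb1 in set 1 DKO yBM (−0.11 without libraries with Wwox against their label), Xpo1 in set 1 DKO BMT (−0.0019 with the replicate block), Ran in set 1 DKO tumor against DKO BMT (0.0044 with quantile normalization, 0.16 without libraries with Wwox against their label), Rangap1 in set 2 SKO tumor (0.19 with median-ratio scaling, 0.30 with quantile normalization), and Ran and Xpo1 in set 2 DKO BMT against SKO BMT (−0.30 and −0.082 without libraries with Wwox against their label). With single libraries left out, such values ran from −0.0075 to 0.33 for Kpnb1 in set 1 DKO yBM, from −0.27 to 0.62 for Xpo1 in DKO BMT, from −0.22 to 0.16 for Ran, −0.37 to 0.34 for Rcc1 and −0.12 to 0.77 for Xpo1 in DKO tumor against DKO BMT, and from −0.092 to 0.29 for Ranbp1 between ages. In set 2 SKO tumor they ran from −0.49 to 1.22 for Rcc1, −0.73 to 0.86 for Rangap1, −0.31 to 1.01 for Xpo1, −0.30 to 0.53 for Kpna2, −0.39 to 1.07 for Kpnb1, −0.14 to 0.91 for Ipo5 and −0.34 to 0.37 for Tnpo1. They ran from −0.51 to 0.089 for Xpo1 in DKO yBM against SKO yBM and from −0.0093 to 0.37 for Ran in DKO BMT against SKO BMT. Scaling moved the median log2 fold change of all genes by up to 0.28 (set 2 SKO tumor, quantile normalization), and Ran stayed 0.96 to 2.01 above that median in the 9 comparisons with control BM.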
